A study of Mus musculus with 60 samples.

Results

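The FGF, VEGF, PDGF and EGF families are secreted growth factors that act through receptor tyrosine kinases, and many of them bind heparan sulfate, the sulfated sugar chain of cell-surface and matrix proteoglycans. In the FGF family that chain is part of the signalling complex with the receptor, which is why these genes stand on an array built for glycan biology. The FGF homologous factors share the FGF fold but stay inside the cell and bind voltage-gated sodium channels. Hgf with its receptor Met, and the heparin-binding cytokine midkine (Mdk), complete the set. The members were the probe sets whose RefSeq identifier maps to a symbol starting with Fgf, Vegf, Pdgf (the alpha receptor left out) or Erbb, together with Egfr, Areg, Btc, Hbegf, Hgf, Met and Mdk. They came to 44 genes, read by 47 probe sets, of 909 named genes on the array. Egfr, Fgf9 and Fgf14 have 2 probe sets each, and the brighter represented the gene. Egf, Ereg, Tgfa, Ptn, Kdr, Flt1 and Erbb2 had no named probe set and were not analysed here.

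Total RNA of mouse tissues was measured on 60 arrays from 18 animals in 18 groups. The St6galnac2 line supplied thyroid, lymph node, brain and intestine from wild type (WT, +/+) and knockout (KO, -/-) animals, with 3 animals in each group and 2 in KO intestine. The B4galnt1/B4galnt2 line supplied WT and double knockout (DKO, -/- at both genes) animals. Its thymus arrays came from 3 WT and 5 DKO animals. Testes were taken from 3 of each genotype, mammary glands from 2 WT and 5 DKO animals, and kidneys from 4 WT and 5 DKO animals. Brain and small intestine of 3 further WT C57 mice came without a sex in the labels, and the labels used here give no ages. These 3 genes encode enzymes that add sialic acid or N-acetylgalactosamine to glycans. Values are log2 expression values (RMA), so a difference of 1 is a doubling. In bulk tissue, fewer cells of a type and less RNA per cell cannot be told apart.

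The labels were checked first. In intestine, where it read highest in its line, St6galnac2 read 8.65 and 8.74 in KO and 8.74 and 8.77 in WT animals, and the groups overlapped. In brain it read 5.49 to 5.71 on the 3 KO arrays and 5.67 to 5.71 on the 3 WT arrays used. Its difference was not called in any tissue of its line. B4galnt1 and B4galnt2 were likewise not called in the 4 tissues of theirs. Whether these probe sets lie in the deleted parts is not known, so the genotypes below are those of the labels. Over the 865 named genes that are not members, 56 arrays correlated with the other arrays of their labelled tissue at 0.528 or more (median 0.942). The other 4 fell below 0.3 and were left out of the comparisons. They are the first brain array of WT animal 9099, which matched intestine, its intestine array, which matched brain, and the WT thymus arrays of N3740 and N3738, which read 13.4 and 13.5 for Prol1, a salivary and lacrimal gland gene. Prol1 was also above 5 on mammary gland arrays of N3738, N9686, N5892 and N5895, on lymph node arrays of 9362 and 9094, and on the thyroid array of 9093. On the 6 remaining arrays labelled thymus, the thymic chemokine Ccl25 read 4.40 to 4.85, against 10.28 to 11.78 in intestine. The T-cell gene Cd2, chosen after its values were seen, read 4.7 to 6.0 on them and 8.0 to 10.6 in lymph node. Their label is therefore not borne out by these markers, and they are called arrays labelled thymus. The measured defining markers of kidney (Umod), testes (Galntl5), intestine (Lgals4) and lymph node (Glycam1) were each highest in their own tissue. The WT mammary gland array of N3738, 1 of 2 in its group, read 7.29 for Umod and 5.48 for Galntl5. These were the highest values outside kidney and outside testes, and the mammary gland medians were 4.68 and 3.42. The array was kept, and the part of this signal in the mammary gland results was not tested. The single markers of mammary gland and thyroid did not hold up as well. Muc1 read 5.14 to 7.02 in mammary gland, below testes (7.65 to 8.14), and Chga read 5.8 and 7.8 on 2 KO thyroid arrays, below brain (10.21 to 10.67). Among the 7 measured brain markers, Fut9 averaged more in kidney (10.62) than in brain (9.40).

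For each tissue, limma estimated the difference from the average of the line's remaining 3 tissues, over WT and knockout animals and with a sex term. That term was common to all tissues of a line, so it does not describe a gene whose sex difference varies between them. Areg, for example, differed between the sexes by -5.64 in mammary gland and 0.16 in kidney. A gene was called at an adjusted p under 0.05 (Benjamini-Hochberg over 963 named probe sets) and a log2 difference of at least 1. P-values measure the spread between these animals. Of the 44 members, 26 were called in at least 1 tissue (59.1%, against 65.0% of all named genes), and 18 in none. Of the 15 secreted FGF ligands, 10 were never called: Fgf2, Fgf3, Fgf4, Fgf5, Fgf6, Fgf8, Fgf16, Fgf17, Fgf20 and Fgf22. Fgf11, Fgf15, Fgf23, Vegfc, Vegfd, Pdgfd, Erbb4 and Hgf were not called either. Hgf, Fgf16 and Fgf23 lay below the 25th percentile of all values (4.2113) on all 60 arrays, so a low tissue could hardly show for them. Of the others never called, Fgf2, Fgf5, Fgf6, Fgf8, Fgf20, Pdgfd and Erbb4 also averaged below it over all arrays (3.17 to 4.06). For these too, the lack of a call does not show even expression. Among the secreted FGF ligands, Fgf1 was called in 7 tissues. The receptors Fgfr1, Fgfr2, Fgfr3 and Fgfr4 were called in 1, 4, 4 and 3, and the homologous factors Fgf11, Fgf12, Fgf13 and Fgf14 in 0, 8, 6 and 1.

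**Figure D1:**
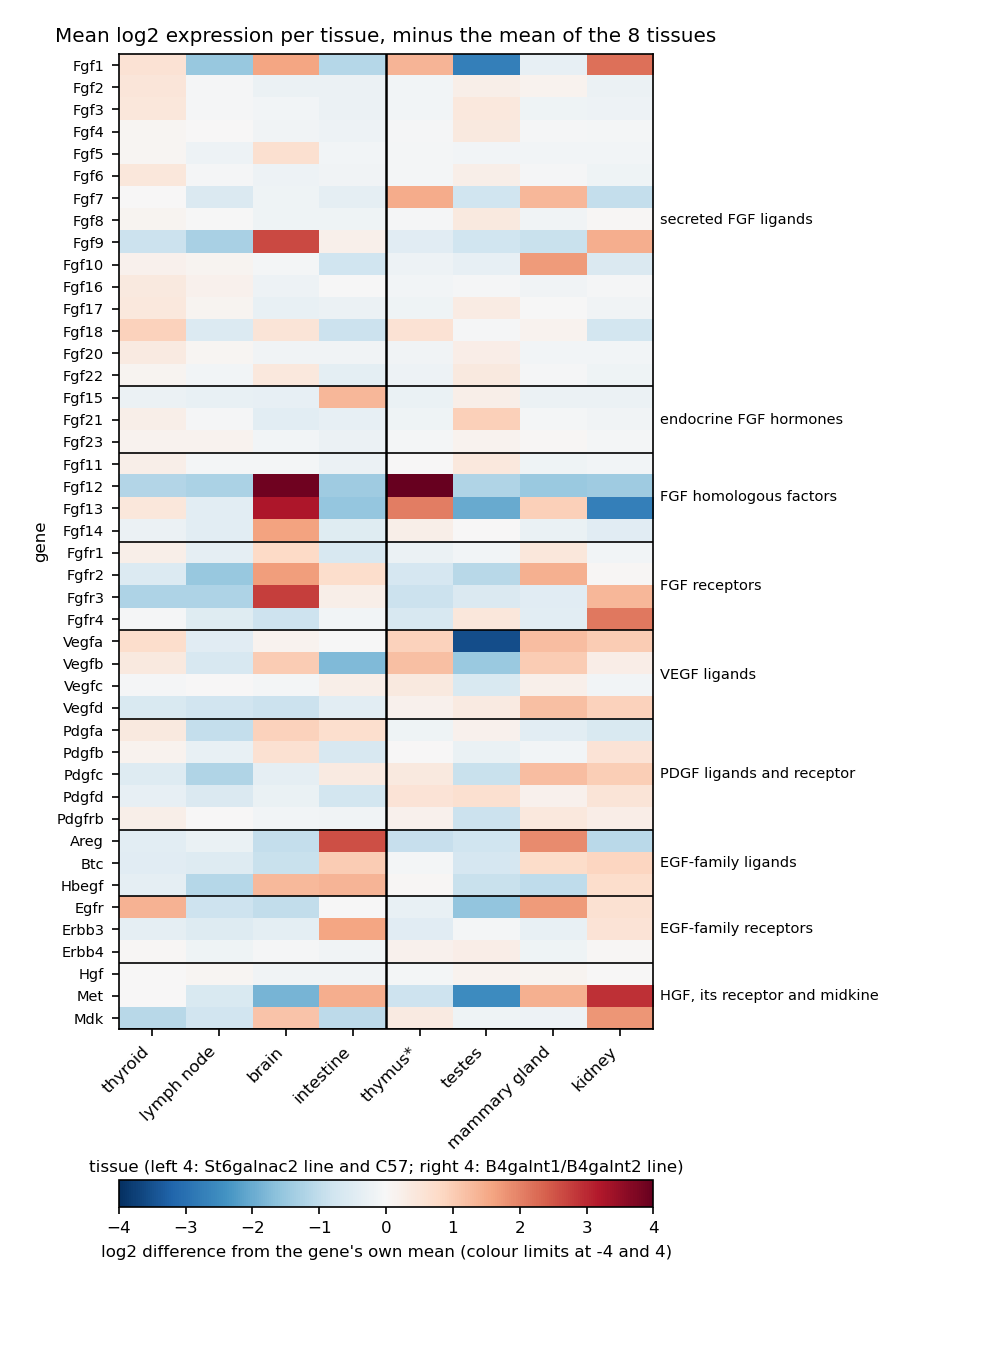
Mean log2 expression of the 44 genes in the 8 tissues, shown as the difference from each gene's own mean (colour, log2) and grouped by role. The asterisk marks the arrays labelled thymus, and the 4 arrays left out are not in the means. Fgf12 and Fgf13 stand out in brain and on arrays labelled thymus, Vegfa is low in testes, and most secreted FGF ligands are pale.

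The promoters of 3 members are shown because their genes moved in contrasting ways. Areg and Btc, neighbouring EGF-family ligand genes on chromosome 5, were both high in intestine. Vegfb, on chromosome 19, was low there. Each sequence is the 250 bases before the transcript start given by RefSeq (GRCm38.p6), 5′ to 3′ on the gene's strand: chr5:91139349-91139598 on the plus strand for Areg, chr5:91402995-91403244 on the minus strand for Btc, and chr19:6987652-6987901 on the minus strand for Vegfb. Capitals mark the TATA box as the motif TATAAA, the GC box as the motif GGGCGG, and the cAMP response element as the motif TGACGTCA. Each was searched on both strands, so a GC box on the other strand appears as its reverse complement.
Areg: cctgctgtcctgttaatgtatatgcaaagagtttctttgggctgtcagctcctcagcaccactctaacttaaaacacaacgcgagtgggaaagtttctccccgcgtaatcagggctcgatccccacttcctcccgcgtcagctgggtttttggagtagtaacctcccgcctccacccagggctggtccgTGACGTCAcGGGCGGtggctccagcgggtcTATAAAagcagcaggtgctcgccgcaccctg
Btc: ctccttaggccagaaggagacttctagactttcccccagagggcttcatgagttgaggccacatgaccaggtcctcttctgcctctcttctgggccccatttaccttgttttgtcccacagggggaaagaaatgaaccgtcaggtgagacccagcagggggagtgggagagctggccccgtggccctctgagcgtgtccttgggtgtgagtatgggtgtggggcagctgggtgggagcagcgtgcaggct
Vegfb: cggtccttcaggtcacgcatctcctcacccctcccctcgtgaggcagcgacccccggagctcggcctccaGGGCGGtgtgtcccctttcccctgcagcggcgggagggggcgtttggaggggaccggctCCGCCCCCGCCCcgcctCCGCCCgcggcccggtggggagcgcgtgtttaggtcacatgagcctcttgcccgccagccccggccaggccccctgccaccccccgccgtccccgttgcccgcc
The Areg window holds 1 match to each of the 3 motifs and Btc none. Vegfb holds 4 GC boxes, 2 of them back to back. The GC box occurs in 32.74% of the 32851 RefSeq promoters of this length and in 26 of the 42 promoters of members. Counted by gene, 20 of the 32 members matched to a promoter hold it in a window. The TATA box occurs in 12.37% of all promoters and in Areg, Fgf21, Pdgfd and Vegfd among members, and the cAMP response element in 1.55% and in Areg. A match is a description of the letters and no evidence of a bound factor.

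In brain, the FGF homologous factors Fgf12, Fgf13 and Fgf14 and the receptors Fgfr3, Fgfr2 and Fgfr1 were higher than in the other tissues of the line. Of the 44 members, 11 were higher and 3 lower (31.8% called, against 35.2% of all probe sets, 17.9% higher and 17.3% lower), and the members' median difference was 0.05 against -0.16 for all probe sets. Fgf12, which binds sodium channels of excitable cells, read 8.02, 8.24 and 8.42 in WT brain, 8.10, 8.24 and 8.37 in KO brain, and 8.11, 8.42 and 8.60 in C57 brain. The 7 intestine arrays used read 2.86 to 3.11, so the groups lay far apart. Its difference was 5.12 ± 0.09 (SE; adjusted p = 1.2e-16, limma). Fgf13, on the X chromosome, rose by 3.85 ± 0.33 and Fgf14 by 1.95 ± 0.15. Fgf9, a ligand that signals to FGF receptors, read 7.98 to 9.62 on the 9 brain arrays (difference 3.46 ± 0.18). Fgfr3 read 9.0 to 10.07 there, above all 47 arrays of other tissues (4.87 to 8.29), with a difference of 3.54 ± 0.13. Fgfr2 rose by 2.21 ± 0.35 and Fgfr1 by 1.0 ± 0.15. Fgfr1 fell under the size threshold in several alternatives, such as 0.87 without animal 9100, 0.94 without 9362 and 0.98 without 9099.

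Other heparin-binding ligands were also high in brain. Mdk rose by 2.27 ± 0.16, Fgf1 by 2.31 ± 0.32, Hbegf by 1.37 ± 0.15 and Vegfb by 1.77 ± 0.29. The 3 members lower in brain were the receptors Met (-2.32 ± 0.33) and Egfr (-1.20 ± 0.24) and the EGF receptor ligand Areg (-1.53 ± 0.26). Areg averaged 3.99 in brain, 4.50 in thyroid and 4.67 in lymph node, and the mean it was compared with also holds intestine (7.50). The brain arrays were not uniform. Fgf7, the keratinocyte growth factor, read 5.16 to 5.41 on the arrays of 9362, 9099 and 9100 and of C57 animal WTF2 (5.20), and 3.41 to 3.92 on the other 5. Met read 3.64, 3.92 and 4.12 in 9100, 9362 and 9099, 4.86 in WTF2, and 5.31 to 5.66 in the rest. The arrays high for Fgf7 thus held the lowest Met values, across WT, KO and C57 groups.

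**Figure D2:**
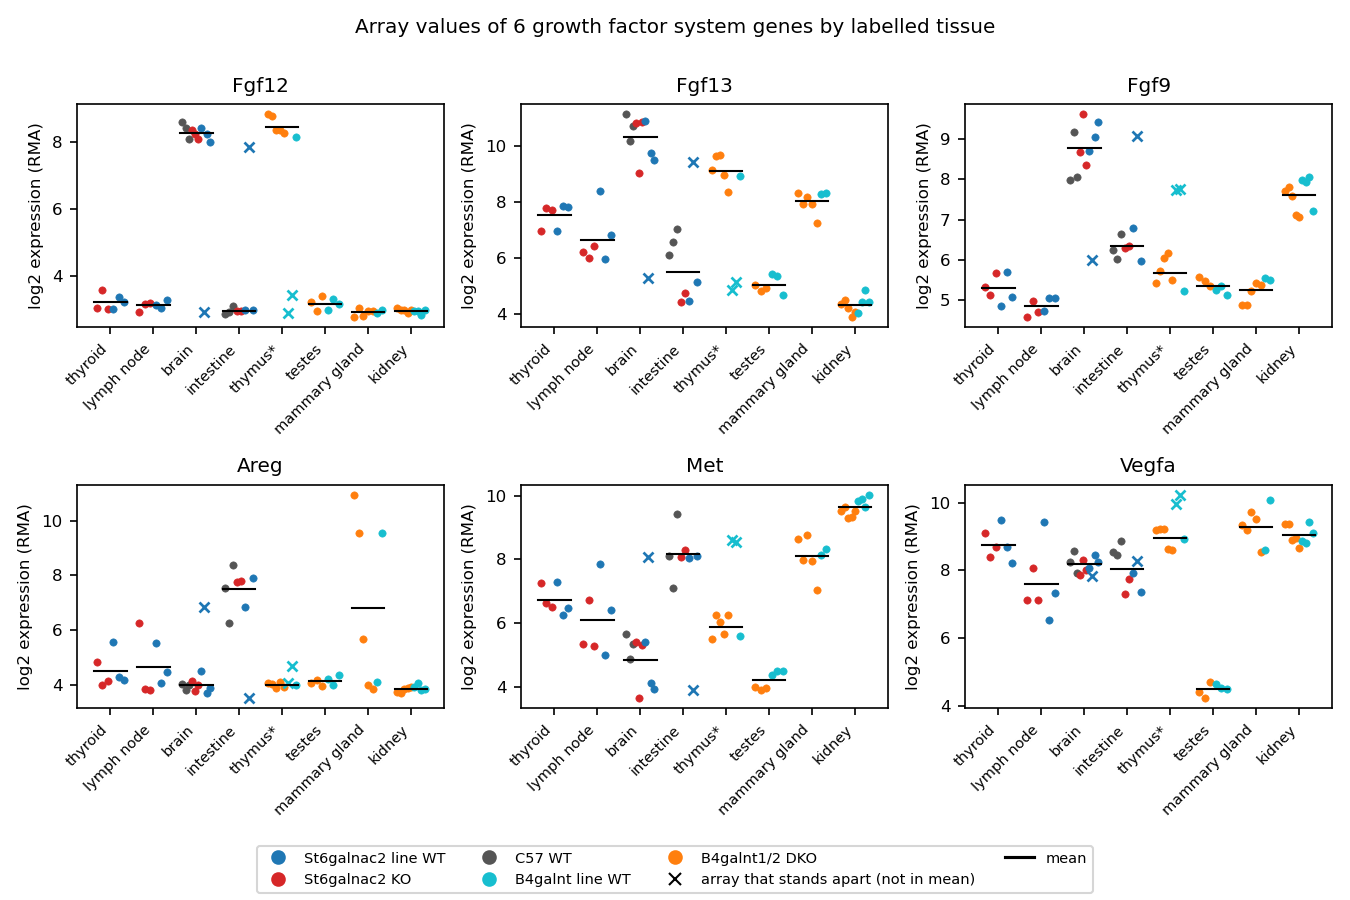
Log2 expression of 6 genes on every array by labelled tissue (asterisk: arrays labelled thymus). Points are arrays, coloured by line and genotype, crosses are the 4 arrays left out, and black lines are means of the others. Fgf12 sits near 3 except in brain and on arrays labelled thymus, Areg splits widely in mammary gland, and Vegfa in testes lies below every other tissue.

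In intestine, all 3 EGF-family ligands and the receptors Erbb3 and Met were higher, while Vegfb, Pdgfb and several FGFs were lower. Of the members, 5 were higher and 7 lower (27.3%, against 31.3% of all probe sets, 13.6% higher and 17.7% lower), with a median of -0.32 against -0.24. Areg, the ligand amphiregulin, read 6.86 and 7.91 in WT, 7.76 and 7.78 in KO and 6.27, 7.53 and 8.39 in C57 intestine, against 3.72 to 4.51 in brain. Its difference was 3.05 ± 0.30 (limma adjusted p = 2.5e-07). Btc, betacellulin, rose by 1.51 ± 0.20 and Hbegf by 1.36 ± 0.17. Erbb3, which pairs with other EGF-family receptors to signal, read 7.49 and 8.19 in WT and 6.81 and 7.7 in KO and rose by 2.98 ± 0.13. C57 intestine read only 4.82, 5.01 and 5.76 for it. Met rose by 2.19 ± 0.38. The lowered members were Fgf13 (-3.43 ± 0.39), Vegfb (-2.32 ± 0.33), Fgf12 (-1.88 ± 0.11), Fgf1 (-1.62 ± 0.37), Fgf18 (-1.19 ± 0.21), Fgf10 (-1.12 ± 0.30) and Pdgfb (-1.05 ± 0.25). Fgf10 was -0.88 without animal 9094, and Pdgfb was -0.94 without 9093 and -0.89 without 9094, all under the size threshold. With the arrays that stand apart kept, 5 of the 7 falls were lost (Fgf1 -0.84, Fgf10 -0.92, Fgf12 -0.91, Fgf18 -0.87 and Pdgfb -0.89).

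In lymph node no member was higher and 8 were lower (18.2%, against 25.2% of all probe sets, of which 12.9% were higher and 12.4% lower). The members' median was -0.26 against -0.03 for all probe sets. The lowered members were Fgf9 (-2.03 ± 0.18), Fgfr2 (-1.90 ± 0.35), Hbegf (-1.87 ± 0.15), Fgf1 (-1.74 ± 0.32), Fgf12 (-1.68 ± 0.09), Pdgfa (-1.64 ± 0.12), Fgfr3 (-1.52 ± 0.13) and Erbb3 (-1.14 ± 0.12). Pdgfa, a mitogen of mesenchymal cells, read 6.90 to 7.67 on the 6 lymph node arrays and 7.42 to 9.44 elsewhere. The WT array of 9094 differed from the other 5. It read 9.44 for Vegfa against 6.55 to 8.07, and 7.95 for Fgf10, above all 7 mammary gland arrays (7.04 to 7.46). The same array correlated with the lymph node arrays at 0.53, against 0.86 to 0.96 for the other 5. It read 7.98 for the T-cell gene Cd2, against 10.12 to 10.61. What sets it apart was not tested. The mean B-cell and lymph node marker level (6 genes) was 9.17 to 11.42 over the 6 lymph node arrays. Leaving out the 3 arrays of this line with Prol1 above 5 raised the number of called members to 13 (29.5%, against 30.3% of all probe sets in that fit).

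In thyroid, 4 members were higher and 3 lower (15.9%, against 21.4% of all probe sets, 7.79% higher and 13.6% lower), with a median of 0.29 against 0.06. Egfr read 7.04 to 8.13 and rose by 1.96 ± 0.24, or by 0.99 with its other probe set. Fgf18 rose by 1.19 ± 0.18 (0.97 without animal 9361), Fgf1 by 1.04 ± 0.32 (0.87 without 9093, 0.81 without 9094) and Vegfa by 1.0 ± 0.29 (0.84, 0.97 and 0.93 without 9093, 9094 and 9099). These 3 rises thus sat at the size threshold. Fgf1 also missed the adjusted p without 9093 (limma adjusted p = 0.0811). With wild-type arrays only, both Fgf1 (limma adjusted p = 0.174) and Vegfa (0.108) missed it. Fgf12, Fgfr3 and Fgf9 were lower, at -1.56 ± 0.09, -1.48 ± 0.13 and -1.45 ± 0.18. Fgfr3 averaged 5.41 in thyroid and 5.39 in lymph node, and Fgf9 averaged 5.29 and 4.85. The means these tissues were compared with hold brain, at 9.39 for Fgfr3 and 8.78 for Fgf9.

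In kidney, Met, Fgf1, Fgfr4, Fgf9, Fgfr3, Mdk, Vegfa and Hbegf were higher. These 8 rises and 4 falls were 27.3% of members, against 21.7% of all probe sets (11.8% higher and 9.87% lower), and the medians were -0.04 and -0.13. Met, the receptor of hepatocyte growth factor, read 9.63, 9.85, 9.90 and 10.02 in WT and 9.29, 9.34, 9.51, 9.52 and 9.65 in DKO kidney. Every kidney array but the DKO arrays of N5893 and N5894 lay above all 47 arrays of other tissues, the highest of which was C57 intestine at 9.43. The difference was 3.6 ± 0.15 (limma adjusted p = 8.6e-16). Fgfr4 read 6.80 to 7.7 in kidney and 4.0 to 5.57 elsewhere, with no overlap, and rose by 2.33 ± 0.09. Fgf1, a ligand that binds all FGF receptors, rose by 2.84 ± 0.13, and Fgf9 by 2.24 ± 0.12. Fgfr3 (1.85 ± 0.20), Mdk (1.70 ± 0.18), Vegfa (1.42 ± 0.14) and Hbegf (1.38 ± 0.11) followed. Egfr was not called, but its other probe set passed, at 1.07 ± 0.18 (limma adjusted p = 1.2e-05). Fgf13 (-3.10 ± 0.14), Fgf12 (-1.87 ± 0.07) and Fgf7 (-1.65 ± 0.13) were lower. Areg was also called lower (-1.32 ± 0.57), at an adjusted p of 0.045 that passed the threshold with little margin and was lost without N3740, N5891, N5892, N5893, N9686 or N9700 (limma adjusted p from 0.0508 to 0.238). It read 3.72 to 4.07 in kidney, 3.98 to 4.35 in testes and 3.90 to 4.11 on arrays labelled thymus. The mean that kidney was compared with also holds mammary gland, at 3.86 to 10.93. With no sex term, Areg was not called in kidney (-1.11, limma adjusted p = 0.145).

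In testes 12 members were lower and 1 higher (29.5%, against 31.5% of all probe sets, of which 21.7% were lower and 9.76% higher). The medians were -0.11 and 0.00, and the share called was near that of the array. Fgf12, 1 of the 12, turned to 0.23 without the arrays labelled thymus. Vegfa, the main ligand of blood vessel growth, read 4.50, 4.52 and 4.66 in WT and 4.23, 4.42 and 4.70 in DKO testes. The 50 arrays of other tissues read 6.55 to 10.07, and the difference was -4.45 ± 0.16 (limma adjusted p = 4.3e-17). Fgf1 (-3.68 ± 0.15), Met (-3.62 ± 0.18), Vegfb (-2.44 ± 0.13), Egfr (-2.29 ± 0.19), Fgf13 (-1.99 ± 0.16), Pdgfc (-1.75 ± 0.15), Fgf12 (-1.53 ± 0.08) and Fgf7 (-1.51 ± 0.16) were also lower. Fgfr2 (-1.10 ± 0.32), Pdgfrb (-1.06 ± 0.15) and Btc (-1.05 ± 0.19) lay near the size threshold. They fell under it without a single animal: Fgfr2 to -0.99 without N5893 or N9686 and -0.86 without N9700, Pdgfrb to -0.95 without N9700, and Btc to -0.93 without N3738. Fgf21, a metabolic hormone, was the sole member higher, at 5.85 to 6.30 against 4.40 to 5.65 elsewhere, a difference of 1.04 ± 0.09 (0.98 without N3740).

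In mammary gland 10 members were higher and 2 lower (27.3%, against 16.2% of all probe sets, of which 12.1% were higher and 4.05% lower). The medians were -0.04 and 0.00. Egfr rose by 2.33 ± 0.19, and Fgf10, a mesenchymal ligand of epithelial Fgfr2, by 2.11 ± 0.12, reading 7.04 to 7.46 on all 7 arrays. Fgf13 (1.86 ± 0.16), Vegfa (1.67 ± 0.16), Fgf7 (1.66 ± 0.16), Met (1.58 ± 0.18), Fgfr2 (1.51 ± 0.32), Pdgfc (1.12 ± 0.15) and Vegfb (1.12 ± 0.13) were higher as well. Fgfr2 ran from 7.15 to 10.72 over the 7 arrays. With wild-type arrays only, its difference was 0.73, under the size threshold. Areg rose by 2.28 ± 0.67 on average, but its arrays ran from 3.86 to 10.93, and without N9686 the difference was 1.32 and no longer called (adjusted p = 0.142). Fgf12 (-1.94 ± 0.08) and Fgfr4 (-1.04 ± 0.11; -1.0 without N3738, just under the size threshold) were lower. Prol1 read 9.7 to 12.5 on 4 of the 7 arrays, and its part in these results was not tested. Without those arrays Vegfb was 0.95, under the size threshold. With quantile normalization repeated, Vegfb was 0.91 and Pdgfc 0.98, also under it.

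On the arrays labelled thymus, 6 members were higher and 2 lower (18.2%, against 17.3% of all probe sets, 9.66% higher and 7.68% lower), with medians of -0.12 and -0.08. Fgf12 read 8.17 on the WT array and 8.28, 8.36, 8.38, 8.80 and 8.84 on the DKO arrays. The 9 brain arrays read 8.02 to 8.60, so the highest 2 lay above all of them. The WT thymus arrays left out read 2.90 and 3.45. The difference was 5.34 ± 0.09 (limma adjusted p = 1.5e-22), and 3.67 with the arrays left out put back. Fgf13 rose by 3.23 ± 0.19, Fgf7 by 1.5 ± 0.18, Fgf1 by 1.45 ± 0.18, Vegfa by 1.36 ± 0.19 and Vegfb by 1.33 ± 0.16. Met (-1.56 ± 0.21) and Fgfr4 (-1.38 ± 0.13) were lower. Egfr was not called, but its other probe set passed, at -1.11 ± 0.24 (limma adjusted p = 0.0005). With the arrays left out put back, Met was -0.56 and no longer called (limma adjusted p = 0.0745). The brain markers (7 genes) averaged 4.31 on these arrays and 9.33 in brain, and the connective tissue markers (5 genes) read 9.74 to 10.39 and averaged 6.09 in brain. Fgf12 lay near 3 in the 6 tissues where it was called lower, and each was compared with a mean that holds brain or the arrays labelled thymus. Without the arrays labelled thymus, its difference was -0.09 in kidney (adjusted p = 0.205), -0.14 in mammary gland (0.0845) and 0.23 in testes (0.00757).

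Brain against intestine was also measured in the C57 mice, which are other animals than those of the St6galnac2 line. In that line 17 members were called (12 higher and 5 lower in brain, 38.6% against 37.2% of all probe sets, 20.2% higher and 16.9% lower), and in C57 mice 15 (11 and 4, 34.1% against 33.9%, 17.1% higher and 16.7% lower). Of these, 14 were called in both with the same sign, which is 82.4% of the calls of the line and 93.3% of those of C57, and 0 with opposite signs. Over all named genes the shares were 83.3% and 91.8%, close to those of the members. Fgf12 differed by 5.25 ± 0.13 in the line and 5.41 ± 0.18 in C57, Fgf13 by 5.45 ± 0.45 and 4.07 ± 0.32, Vegfb by 3.07 ± 0.39 and 2.42 ± 0.24, and Fgfr3 by 3.05 ± 0.17 and 1.94 ± 0.25. Fgf1, Fgf9, Fgf14, Fgf18, Fgfr1, Mdk and Pdgfb were also higher in brain in both. On the intestine side Areg differed by -3.44 ± 0.35 and -3.44 ± 0.50, Met by -3.38 ± 0.45 and -2.92 ± 0.57, and Btc by -1.84 ± 0.24 and -1.92 ± 0.33. Leaving out 1 C57 animal left 10 to 15 members called there. Without WTF1, Fgf1, Fgf18, Mdk, Met and Pdgfb were lost (limma adjusted p from 0.0541 to 0.0978). Mdk and Pdgfb were lost without WTM3 too, and Fgf18 without WTF2.

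Erbb3 was the exception with a tested difference between the sets. It differed by -2.93 ± 0.16 between brain and intestine in the line, whereas C57 intestine lay only slightly above C57 brain (4.34 to 4.64). The difference between the sets was -2.28 ± 0.35 (adjusted p = 0.0054, limma interaction, a fit added after the data were seen), and 1 member was called against 0.831% of all probe sets. Fgf15, an intestinal hormone that acts on bile acid synthesis in the liver, was called in C57 only (-3.0 ± 0.49). It read 6.51, 6.52 and 8.33 in C57 intestine, 3.65 and 3.66 in WT and 4.16 and 7.04 in KO intestine of the line. Its difference between the sets (2.36 ± 0.75) was not called (adjusted p = 0.212). Egfr, read by its brighter probe set, and Fgfr2 were called in the line alone. Egfr was lost there without 9093, 9361 or 9362 (limma adjusted p from 0.0691 to 0.0762) and Fgfr2 without 9362 (0.0629). The other Egfr probe set passed in both sets of mice. It differed by -1.32 ± 0.15 in the line (limma adjusted p = 6.8e-07) and by -1.26 ± 0.22 in C57 (0.0036). The C57 label reads small intestine and that of the line intestine, so the segment and the mouse line cannot be told apart.

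**Figure D3:**
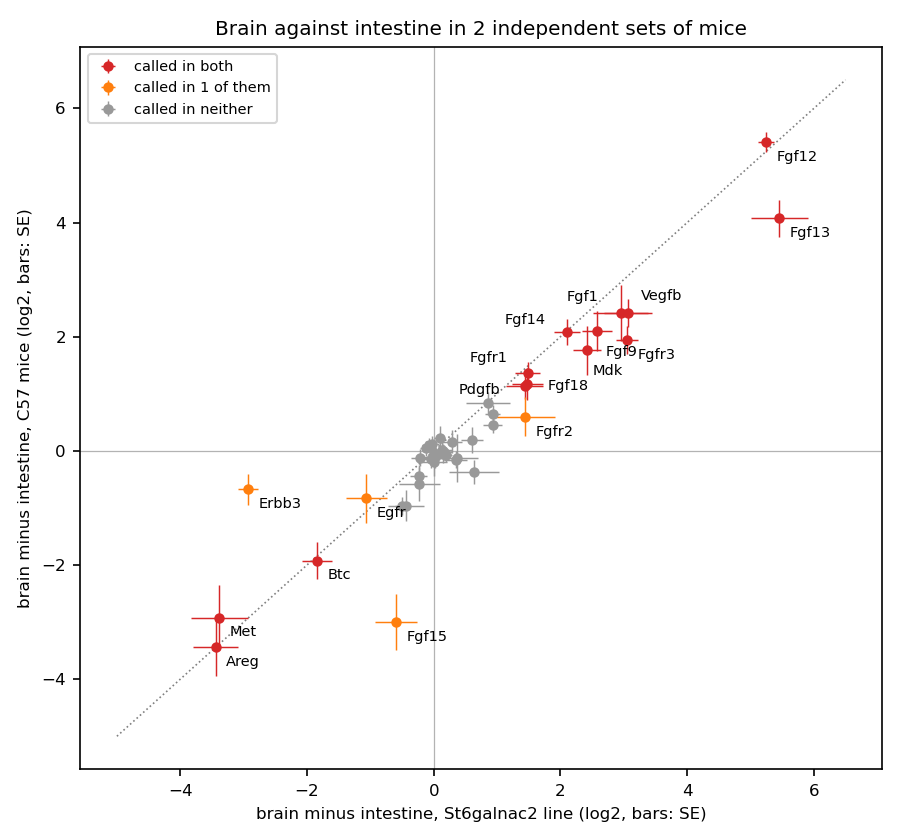
Brain minus intestine difference of the 44 genes in the St6galnac2 line (x axis, log2) and in C57 mice (y axis, log2), with standard errors as bars and equality as the dotted line. The 14 genes called in both (red) lie in the same quadrant in both sets, and Erbb3 and Fgf15 lie off the line.

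C57 animals were also compared directly with WT animals of the line. In brain 0 members were called (0.0% of all probe sets). At an unadjusted p under 0.05 there were 11 members (25%, against 25.5% of all probe sets). Without animal 9094, 4 members were called, among them Fgf10 (9.09%, against 6.96% of all probe sets). In intestine 0 were called (0.104% of all probe sets), and 13 had an unadjusted p under 0.05 (29.5%, against 21.6%). The members with the smallest p there were Erbb3, lower in C57 by 2.64 on the log2 scale (-2.64 ± 0.37, adjusted p = 0.125), Fgf15, at 3.46 ± 0.59 (0.125, and called at 2.86 without WTF2), and Fgfr3, at 1.70 ± 0.34 (0.132).

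Sex was compared in the tissues of the B4galnt1/B4galnt2 line that hold males and females of both genotypes. In mammary gland 1 member was called, against 0.312% of all probe sets. Areg, known for its role in the growth of mammary ducts, read 9.54, 9.55 and 10.93 in the 3 females (DKO, WT and DKO) and 3.86, 4.0, 4.10 and 5.69 in the 4 males. The ranges lay far apart, and the male minus female difference was -5.64 ± 0.55 (limma adjusted p = 0.017). The size stayed between -5.19 and -6.03 when any animal was left out, but the call was lost without N3738, N5891, N5892, N5894 or N9686 (adjusted p from 0.0556 to 0.128). Fgfr2 read 10.05, 10.45 and 10.72 in females and 7.15 to 9.24 in males (-2.35 ± 0.52, adjusted p = 0.183), and Mdk 8.02 to 8.37 and 6.32 to 7.32 (-1.48 ± 0.26, adjusted p = 0.169), neither called. The epithelial marker Muc1 averaged 6.66 (6.45 to 7.02) in females and 5.36 (5.14 to 5.64) in males, and its part in these differences was not tested. In kidney, where Muc1 averaged 7.78 and 7.38, Areg read 3.72 to 3.82 in females and 3.84 to 4.07 in males.

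In kidney 4 members were called (1 higher and 3 lower in males, 9.1% against 9.03% of all probe sets, 2.6% higher and 6.44% lower), all by less than the doubling asked for between tissues. Fgfr3 read 8.28, 8.29 and 8.29 in the 3 females and 7.67 to 7.98 in the 6 males (-0.51 ± 0.08, limma adjusted p = 0.0024). Vegfa read 9.36, 9.37 and 9.45 in females and 8.66 to 9.12 in males (-0.52 ± 0.10, adjusted p = 0.0073). Neither gene overlapped between the sexes. Hbegf was higher in males, at 6.56 to 7.06 against 6.20 to 6.44 (0.51 ± 0.11, adjusted p = 0.013). Fgf13 was lower in males (-0.44 ± 0.11, adjusted p = 0.032), with overlapping ranges. Vegfd, a ligand of lymphatic growth on the X chromosome, missed the threshold (-0.57 ± 0.16, adjusted p = 0.054). Egfr differed by 0.05 ± 0.16 and was not called. Its other probe set passed the threshold, higher in males (0.59 ± 0.15, limma adjusted p = 0.028). Without N5892 or N9686, both female, 2 members were called. Hbegf then had an adjusted p of 0.0671 and 0.101. Fgf13 was lost without N5891, N5892, N5894, N5895 or N9686 (adjusted p from 0.0554 to 0.193). The connective tissue markers averaged 8.09 in females and 7.51 in males.

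**Figure D4:**
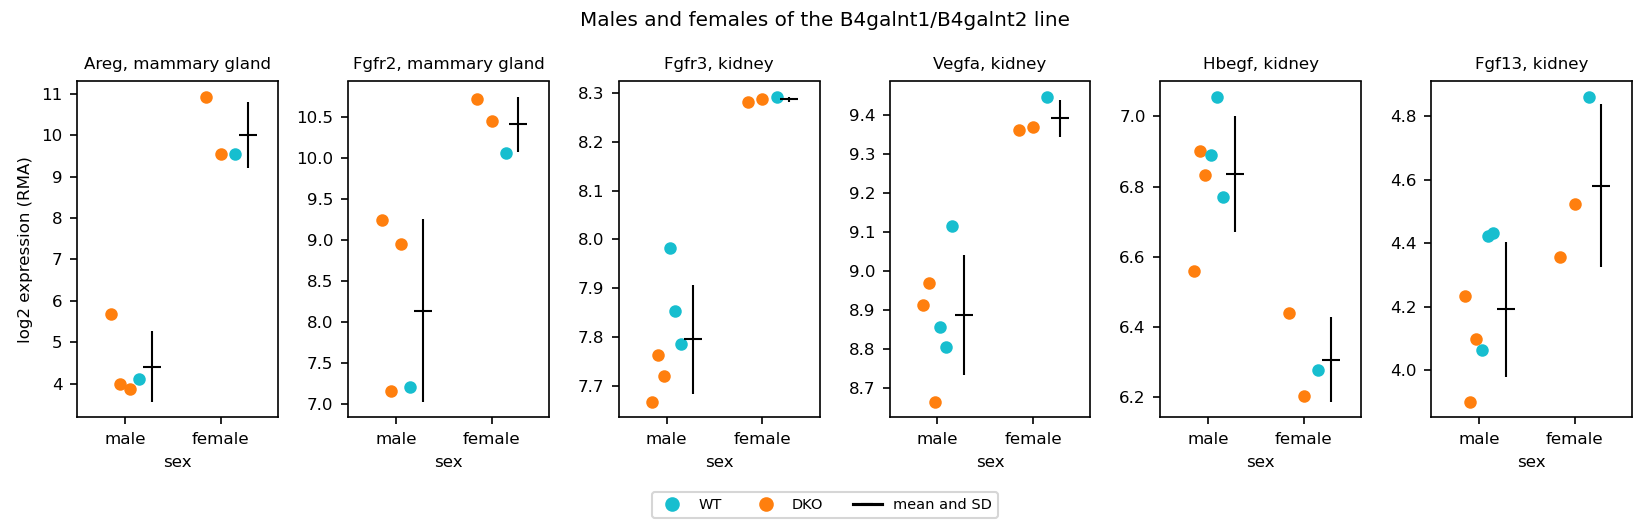
Log2 expression in males and females of the B4galnt1/B4galnt2 line, as array values (points, by genotype) with mean and SD, for Areg and Fgfr2 in mammary gland and 4 genes in kidney. The axes do not start at 0 and differ between panels. Areg separates the sexes by more than 5 and the kidney genes by far less.

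Genotype was compared within each tissue, called at an adjusted p under 0.05. No member was called by limma in any of the 8 tissues, of which thymus had a single WT array. The share of all probe sets called was 0.312% in testes, 0.104% in kidney and 0.0% in thyroid, lymph node, brain, intestine, thymus and mammary gland. At an unadjusted p under 0.05 there were 3 members in thyroid, 2 in lymph node, 0 in brain, 6 in intestine, 2 in thymus, 5 in testes, 2 in mammary gland and 6 in kidney. Over all probe sets the share under it was 4.36%, 3.43%, 1.87%, 6.23%, 2.8%, 12.9%, 10.1% and 13.4% in the same order, against 6.82%, 4.55%, 0%, 13.6%, 4.55%, 11.4%, 4.55% and 13.6% of members. Median differences of the members lay between -0.20 in lymph node and 0.07 in intestine, against -0.10 and 0.04 for all probe sets there. With 2 to 5 animals a group, and 1 WT animal for thymus, such a result does not show that the members were unaffected. The thymus test takes its spread from the DKO arrays alone and assumes that the lone WT array would vary as they do. In the test of whether the knockout effect differed between tissues, 0 members were called in either line (limma moderated F test; 0.0% of all probe sets in the St6galnac2 line, 0.208% in the other, and 1 and 2 members at an unadjusted p under 0.05). Without animal 9361, 1 member was called in the St6galnac2 line.

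Among the differences with the smallest p, Fgfr2 in thyroid read 6.98, 7.26 and 9.19 in WT and 5.26, 5.49 and 8.67 in KO. The difference was -1.34 ± 0.25 (limma adjusted p = 0.186), and the groups overlapped because the female of each genotype, 9094 and 9093, was high. Without either of them it was called at -1.75 (limma adjusted p = 0.031). These fits give 1 result, since the sex term takes up the female that remains and 2 males of each genotype are compared. Chga, a marker of neuroendocrine cells, read 5.8 and 7.8 on the 2 low KO arrays and 12.7 to 13.1 on the other 4, and its part in the result was not tested. In kidney Fgf1 read 10.46, 10.47, 10.47 and 10.54 in WT and 9.50, 9.99, 10.01, 10.09 and 10.16 in DKO, without overlap (-0.51 ± 0.11, adjusted p = 0.153). Met was lower by a smaller step there (-0.39 ± 0.10, adjusted p = 0.249). In testes Met read 4.37, 4.50 and 4.50 in WT and 3.89, 3.97 and 4.0 in DKO (-0.50 ± 0.11, adjusted p = 0.201), at values near the 25th percentile of the array. Fgfr3 (-0.41 ± 0.12) and Vegfd (-0.56 ± 0.16) in testes had an adjusted p of 0.267. Without WT animal N9700, 7 members and 205 of the 963 probe sets were called in testes, among them Met, Fgfr3 and Vegfd.

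In the remaining tissues the smallest p belonged to Egfr in intestine (0.69 ± 0.14, limma adjusted p = 0.414, but -0.00 with its other probe set), Fgfr1 in lymph node (-0.67 ± 0.21, 0.801), Fgf17 in mammary gland (-0.37 ± 0.13, 0.456), Fgfr2 on arrays labelled thymus (-0.70 ± 0.23, 0.989) and Fgf21 in brain (0.23 ± 0.10, 0.887). Fgf1 and Erbb3 followed in intestine, at 0.70 ± 0.16 (0.436) and -0.58 ± 0.15 (0.499). Groups did not overlap for 3 members in brain, 12 in intestine (2 against 2 animals), 2 in kidney, 4 in lymph node, 5 in mammary gland, 8 in testes, 10 on arrays labelled thymus (1 WT animal) and 5 in thyroid, none of them called. The share of members without overlap, beside that of all named probe sets, was 6.82% and 6.54% in brain, 27.3% and 36.2% in intestine, 4.55% and 3.32% in kidney, and 9.09% and 10.7% in lymph node. It was 11.4% and 14.4% in mammary gland, 18.2% and 13.7% in testes, 22.7% and 34% on arrays labelled thymus, and 11.4% and 7.27% in thyroid.

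**Figure D5:**
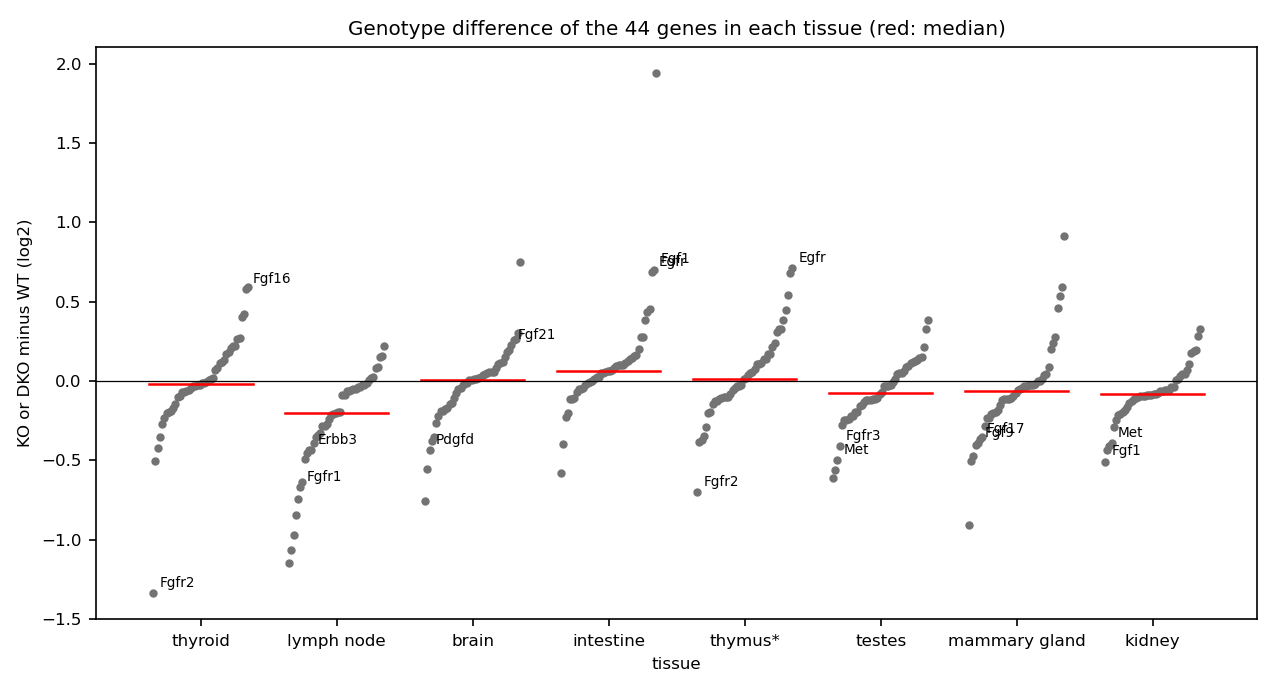
Knockout minus wild type difference (log2) of the 44 genes in each tissue, sorted within the tissue, with the median as a red line and the genes of the 2 smallest p named. The asterisk marks the arrays labelled thymus. Most differences lie within 0.5 of 0, and none was called.

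The array also holds genes that make and carry heparan sulfate, the chain these ligands bind. Of 24 enzymes of synthesis and editing, 8 were higher and 1 lower in brain (37.5%, against 35.2% of all probe sets), and 0 and 8 in intestine (33.3%, against 31.3%). Both shares lay near that of the whole array. Hs6st2, which adds 6-O-sulfate, rose by 4.53 in brain and fell in intestine (-2.29), and Hs3st1 and Hs3st5, which add 3-O-sulfate, rose by 2.30 and 2.21 in brain. Of 14 proteoglycans, 5 were higher and 2 lower in brain (50.0%), among them the glypican Gpc5 at 3.60 and the syndecan Sdc3 at 2.31. In intestine 3 proteoglycans were higher and 5 lower (57.1%), with the epithelial syndecan Sdc1 at 1.97. In testes 7 of 14 proteoglycans were lower and 1 higher (57.1%, against 31.5% of all probe sets), with Gpc6 at -2.80 and Sdc2 at -2.44, while the sulfotransferase Ndst4 was higher by 4.06. In kidney Hs6st1 rose by 2.59 and Gpc4 by 2.41. Thymus-labelled arrays held more Gpc1 (2.97) and Sulf1 (3.12), which removes 6-O-sulfate. Between genotypes, Hpse, the heparan sulfate-cleaving enzyme, was the sole heparan sulfate gene called, lower in DKO testes (-0.85 ± 0.14, limma adjusted p = 0.040). Between the sexes in kidney, Sdc2 was higher in males (0.85 ± 0.09), and Tgfbr3 (-0.41 ± 0.08) and Srgn (-0.51 ± 0.14) were lower.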

How the data were processed

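The arrays are a custom Affymetrix design of glycan-related genes, hybridized with biotinylated cRNA from total RNA, per the labels' protocols. Deposited values are on a log2 scale, computed by the authors with RMA (robust multi-array averaging), per the submitters' processing notes. Its version, and whether all arrays were normalized together, are not given in the sources used here, so levels set across lines are descriptive. Values were used as deposited (2.113 to 14.069, array medians 5.295 to 5.76). Of 1246 probe sets, 963 were named through RefSeq and the supplied gene table (GRCm38.p6), and only these were tested. The other 283 entered an alternative. Among the 44 probe sets that represented the members, 13 have names ending in a mark (s, a or x) of probes that several transcripts may share. The probe set of Fgf9 bears the x. The number of arrays limits the precision.

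Repeat arrays of an animal and tissue were averaged. Fits used limma 3.58.1 in R 4.3.3 (lmFit, eBayes, 2-sided), with a sex covariate wherever both sexes were labelled. The intestine array of 9093 has its sex from its title, since another label calls it unknown. P-values were adjusted within each comparison. Errors beside differences are standard errors. The members, gene lists, tests and alternatives were chosen with earlier results of these data known. Members called were named, or those with the smallest p where none was called, and at most 4 called genes of each other list per comparison. On data simulated for 963 probe sets with 200 changed, recovery was counted at an adjusted p under 0.05, without a size threshold. The tissue fit for kidney recovered 97% of 2-fold and 100% of 4-fold changes, and the genotype fit for thyroid 79% and 97%. The noise was normal and independent between probe sets. With 200 probe sets changed, the adjustment is more lenient than where few change, as in the genotype comparisons. These shares therefore do not measure how much a genotype comparison without calls could miss. The smaller intestine and thymus genotype fits were not simulated. The kidney shares are not those of the tissue calls, which also ask for a log2 difference of at least 1.

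Tissues of the same animals make a real pairing. The deviations of arrays from their groups correlated, in the median, at 0.002 within KO and 0.007 within WT animals of the St6galnac2 line, at 0.037 within DKO and 0.114 within WT animals of the other line, and at -0.058 in C57. Alternatives kept the 4 arrays that stand apart, changed the scaling, the probe sets tested, the covariates or the samples in the fit, used a replicate block, or left out each animal in turn. The blocked fits changed no call between tissues.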

Additional observations from a re-analysis of the deposited data

Results flagged for a closer look

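Within groups of 4 or 5 arrays, 10 of 176 sets of member values held an array far from the others, where chance gives about 5%. In DKO kidney, Fgf1 was lowest in N5891 (9.50, the next at 9.99) and Pdgfd highest in N5892 (4.81, the next at 4.40). In WT kidney, Fgf12 was lowest in N9686 (2.84, the next at 2.97) and Fgf9 lowest in N9700 (7.21, the next at 7.94). In DKO mammary gland, N5894 was highest for Fgf14 (3.82) and Fgfr1 (6.56), and N5891 for Fgfr3 (7.98, the next at 5.91). On DKO arrays labelled thymus, N5891 was highest for Fgf14 (4.41) and lowest for Pdgfc (7.57), and N5894 highest for Fgf17 (5.91).

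The brain minus intestine difference of Erbb3 was lower in the St6galnac2 line than in C57 mice by a tested amount (-2.28, limma interaction).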

How the results depend on the processing

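Counts of called members stayed within 1.5 times in the alternatives other than those named here. Keeping the 4 arrays that stand apart gave 7 members in intestine (220 of all probe sets) and 3 in the test of knockout effects between tissues in the B4galnt1/B4galnt2 line (70 of all). It also turned the knockout differences of Fgfr3 in brain (0.35), Erbb3 in intestine (0.20) and Fgf1 in intestine (-0.40). Leaving out arrays with Prol1 above 5, an alternative added after the data were seen, gave 13 in lymph node and 1 between genotypes in thyroid. The sex comparison in mammary gland could not be fitted that way. A single fit of the line gave 1 between genotypes in mammary gland (48 of all). Without the arrays labelled thymus, also added, Fgf12 in testes turned to 0.23. The other probe set turned Egfr in intestine (-0.002) and Fgf9 in mammary gland (0.053) between genotypes. Leaving out each animal in turn gave 6 to 8 members in thyroid, 8 to 11 in lymph node, 14 to 16 in brain, 11 to 14 in intestine, 8 to 10 on arrays labelled thymus, 11 to 13 in testes, 11 to 14 in mammary gland and 11 to 13 in kidney. Brain against intestine gave 16 to 18 in the St6galnac2 line and 10 to 15 in C57, and C57 against the line 0 to 4 in brain and 0 to 1 in intestine. Sex gave 2 to 6 in kidney and 0 to 1 in mammary gland. Genotype gave 0 to 1 in thyroid and 0 to 7 in testes, and the test between tissues 0 to 1 in the St6galnac2 line. The intestine genotype fit could not be fitted without an animal. The cause of these changes was not tested. With the animal as a replicate block (correlation -0.0507 in the St6galnac2 line and 0.0297 in the other), all 86 member calls between tissues and all 32 between brain and intestine were kept. Of the same 86 calls, 72 were kept with wild-type arrays only, 76 with the arrays that stand apart kept, 80 with quantile normalization repeated, 81 with each array centred on its median, 84 with no sex term, 84 without arrays with Prol1 above 5, 85 with dim probe sets left out and 86 with all probe sets tested. Without the arrays labelled thymus, 34 of 37 were kept.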
